A study of Torulaspora delbrueckii with 9 samples.

Results

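Orc1 was set against Orc2 in 4 of the 6 deposited peak lists from Torulaspora delbrueckii, a budding yeast related to Saccharomyces. Peaks of these lists that overlapped by 1 bp or more were merged, which joined 1244 peaks into 464 regions. The lists came from chromatin immunoprecipitation followed by sequencing (ChIP-seq), and 7 of the 9 labelled samples entered them. Orc1 carried a MYC epitope tag in strains LRY3204 (list 1) and LRY3211 (list 2) and was precipitated with an anti-MYC antibody. Orc2 carried a V5 tag in strains LRY3142 (list 1) and LRY3143 (list 2) and was precipitated with an anti-V5 antibody. The Orc1 lists were called against 2 genomic inputs and the Orc2 lists against 1 mock immunoprecipitate, all from the untagged strain JRY10156. All cultures were grown in YPD, a rich glucose medium, at 30 °C in log phase and cross-linked in 1% formaldehyde for 1 hour. The peak names of Orc1 list 1 hold the word SIR and those of list 2 the word Kos3V5, so the 2 Orc1 strains may differ in more than their number. The labels do not explain these words. Subunit, tag, antibody, control and any such difference in strain cannot be told apart in what follows. The design text calls the 2 lists of a subunit technical replicates, so spread between them may be technical.

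The origin recognition complex (ORC) is the assembly of Orc1 to Orc6 that marks replication origins and, with Cdc6 and Cdt1, loads the MCM helicase on DNA. Orc1 and Orc2 are both part of its core, and the complex needs both. In Saccharomyces Orc1 also holds the Sir1-binding domain used at silent mating-type loci, and it is the relative of Sir3, the nucleosome-binding protein of silent chromatin.

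Orc1 lists held fewer peaks than Orc2 lists, and the peaks were wider. There were 263 and 300 peaks in Orc1 lists 1 and 2, against 339 and 342 in Orc2 lists 1 and 2. The lists did not end at the same significance. The lowest −log10 q of a listed peak was 1.92 and 2.00 in the Orc1 lists and 1.33 and 1.41 in the Orc2 lists. Counts of peaks and of regions in 1 subunit alone depend on these limits. Median peak width was 903 and 884 bp for Orc1 and 602 and 573 bp for Orc2. The shortest peak was 200 bp in both Orc1 lists and 160 and 146 bp in the Orc2 lists. The caller's settings were not given, and whether they differed between the lists was not tested. Peaks over 2000 bp numbered 13 and 23 for Orc1, against 3 and 0 for Orc2. The authors' fold enrichment, the ratio of immunoprecipitate to control at the summit, reached 21.2 and 21.5 in the Orc1 lists and 59.9 and 68.1 in the Orc2 lists. Since the controls differ, it was compared below by rank within a list, with values centred on each list's median as an alternative. A fold enrichment from a culture does not tell how many cells had the site bound from how often it was bound in each.

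Most places listed for Orc1 in both libraries were also listed for Orc2 in both. Of 226 regions in both Orc1 lists, 199 (88.1%, exact Clopper-Pearson 95% interval 83.1% to 92.0%) had a peak in both Orc2 lists. They are called matched. Of 255 regions in both Orc2 lists, the same 199 made up 78.0% (72.5% to 83.0%). A further 19 regions were in both Orc1 lists and no Orc2 list (Orc1-only), and 50 were in both Orc2 lists and no Orc1 list (Orc2-only). The other 196 regions met none of these definitions. With −log10 q of at least 10 required in every list there were 20 Orc1-only and 10 Orc2-only regions. Which of these 2 classes was larger thus depended on the threshold. Of the 464 regions, 178 were in a single list, of which 64 were in Orc1 list 2 and 5 in Orc1 list 1. In Orc2 these numbers were even, with 52 regions in list 1 alone and 57 in list 2 alone.

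Sharing followed the rank of a peak within its list. Of the 100 peaks with the highest fold enrichment, 98 in Orc1 list 1 and 96 in Orc1 list 2 lay in a region that both Orc2 lists had. In each Orc2 list all of the top 100 lay in a region that both Orc1 lists had (95% interval 96.4% to 100%). Of the 100 lowest peaks, 65 and 25 in Orc1 lists 1 and 2 were shared in this way, against 23 and 17 in Orc2 lists 1 and 2. No peak of the Orc2 top 100 lay in a region without Orc1, whereas 2 and 4 of the top 100 peaks of Orc1 lists 1 and 2 lay in regions that no Orc2 list had.

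**Figure D1:**
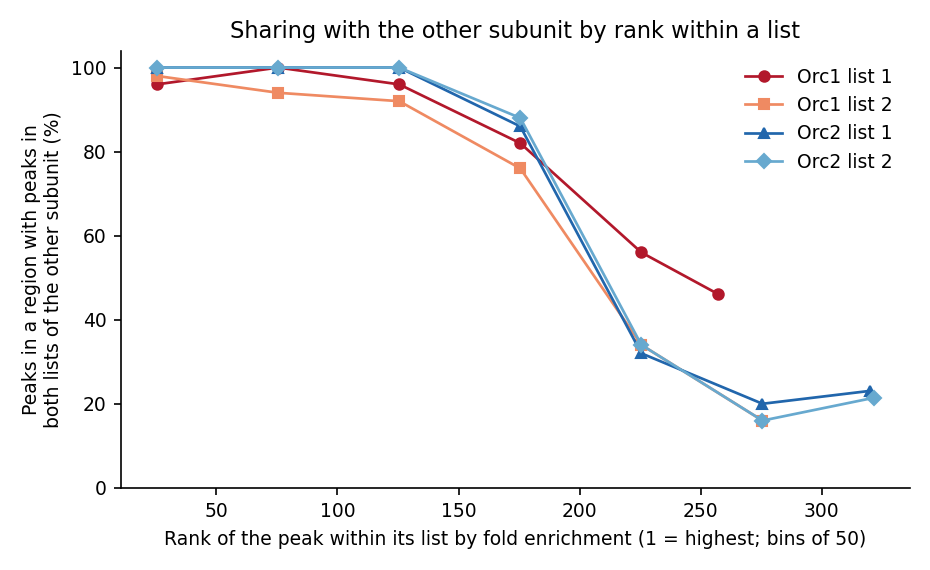
Share of peaks (y axis, percent) that lie in a region with peaks in both lists of the other subunit, by rank of fold enrichment within the list (x axis, bins of 50 peaks, highest first); each line is 1 list. All 4 lists stay above 90% down to rank 150, and the lines of both Orc2 lists and of Orc1 list 2 are below 40% past rank 200.

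The matched regions that stood high in all 4 lists lay between genes or at chromosome ends. The highest by its lowest rank was the right end of chromosome 1 (1407913 to 1418109), with fold enrichment of 21.2 and 21.5 for Orc1 and 47.7 and 42.0 for Orc2. It ranked at the top of both Orc1 lists. The region at 871996 to 873103 on chromosome 2, between the meiotic regulator gene NDT80 and KRE33, gave 14.3 and 17.1 for Orc1 and 41.7 and 39.5 for Orc2. The region at 930473 to 931771 on chromosome 5, with CIR1 and SER2, a gene of serine biosynthesis, on its sides, gave 12.9 and 16.3 for Orc1 and 59.9 and 68.1 for Orc2, the highest value of either Orc2 list. The others by the same rule were beside ABF1 (chromosome 1, 424361 to 425773), between TRM13 and YPT11 (chromosome 5, 125504 to 126703), and the right end of chromosome 5 (1081709 to 1086937). Of the 20 matched regions with the highest fold enrichment in a list, 12 were shared between the 2 Orc1 lists, 17 between the 2 Orc2 lists, and 6 among all 4 lists.

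Orc1-only regions held a few of the strongest Orc1 peaks and many of the weakest. The left end of chromosome 2 (1 to 17323, over TDEL0B00100 and beside TDEL0B00110) was the strongest, with 15.8 and 17.7, which placed it at rank 4 of 263 and rank 2 of 300. A region over FRE4, named for a ferric reductase, on chromosome 4 (1192153 to 1197312) gave 12.8 and 10.6, at ranks 13 and 53. The region at 821558 to 832438 near the right end of chromosome 8 gave 7.64 and 9.43. These 3 were also the widest of the class, covering between 4089 and 17323 bp in each Orc1 list.

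The next members of that class by fold enrichment were narrower than these 3. A region between IRC22 and SGN1 on chromosome 8 (507645 to 508001) gave 6.02 and 6.76 over 306 and 353 bp. One with its summit in SLA2, which encodes an endocytic adaptor, on chromosome 3 (1050693 to 1051897) gave 5.54 and 10.0 over 1114 and 1205 bp. Another beside the septin gene CDC10 on chromosome 2 (1042301 to 1042774) gave 4.86 and 6.67 over 419 and 408 bp. The next by minimum fold enrichment, at 3.01 to 5.06, lay between the histone acetyltransferase gene HAT1 and LOC1, between the cyclin gene PHO80 and the exosome gene RRP6, between EFM5 and ERG26, and between the topoisomerase gene TOP3 and TDEL0F05390. Medians over all 19 were 3.17 and 4.48, against 7.65 and 8.46 for matched regions in the same lists, and their median ranks were 207 of 263 and 181 of 300. The definition leans this way, since a matched region had to pass the authors' threshold in 4 lists.

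The number of Orc1-only regions was 84 without Orc1 list 1 and 47 without Orc1 list 2. Leaving out an Orc1 list loosens the definition to a peak in the other Orc1 list, so a rise is built in. The boundary of the class was also narrow in places. Of the 19 regions, 6 had an Orc2 peak within 1000 bp, the nearest 7 bp away, and merging peaks within 500 bp gave 13 Orc1-only regions. Among the Orc1-only regions named above, the gap was 7 bp at the CDC10 region and 553 bp at 821558 to 832438 on chromosome 8. It was 932 bp at the region between HAT1 and LOC1, and 6289 bp or more at the others named. The median gap to an Orc2 peak was 7970 bp.

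Orc2-only regions were weak in both Orc2 lists, short, and often inside genes. Median fold enrichment over the 50 was 2.18 and 2.27, and median width 295.5 and 296 bp. The best rank of any was 166 of 339 in list 1 and 187 of 342 in list 2, so none was among the top 150 of either list. The strongest by the lower of its 2 values lay between APL1 and SAG1 (named for an alpha-agglutinin) on chromosome 5 (750857 to 751365), with 5.12 and 4.93. The region in BPH1 on chromosome 6 (551792 to 552281) gave 7.51 and 4.30. The rest of the 10 strongest lay in FRS1, beside ATP10, between YEA4 and the prefoldin gene GIM4, between the tRNA gene TDEL0Dtrna1E and RPS25A, in the stress gene HSP12, in the tRNA genes TDEL0Ftrna5L and TDEL0Btrna5F, and beside the glutamate dehydrogenase gene GDH1, with 2.57 to 4.19. At −log10 q of at least 10 the class fell to 10 regions. Without Orc2 list 1 it had 108 regions and without Orc2 list 2 it had 106, under a looser definition that asked for a peak in 1 Orc2 list only.

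Several Orc2-only regions lay in genes of glycolysis. Of 12 such genes found by symbol, 7 lay within 1000 bp of an Orc2-only region, 1 of a matched region and none of an Orc1-only region. Of all 5174 annotated genes, 132 (2.55%) lay within 1000 bp of an Orc2-only region. The summits at all 7 fell in the gene itself: HXK2 (hexokinase) with 2.57 and 3.09, PGK1 (phosphoglycerate kinase) with 2.40 and 2.09, TPI1 (triose phosphate isomerase) with 2.21 and 2.22, FBA1 (aldolase) with 1.84 and 1.95, ENO2 (enolase) with 1.87 and 1.89, GPM1 (phosphoglycerate mutase) with 1.81 and 2.14, and TDH2 (glyceraldehyde phosphate dehydrogenase) with 1.78 and 1.87. These are genes of high expression in glucose-grown yeast. At PGK1 the peaks were 1153 and 1229 bp wide and at ENO2 1202 and 1257 bp, several times the class median. The list was added with these peaks already known and serves as a description. The mock library was the control for these lists and input for Orc1, and the part of the control in this pattern was not tested.

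At matched regions the summits of Orc1 and Orc2 were set apart by about 60 bp, in either direction along the chromosome. This was measured at the 172 matched regions with exactly 1 peak in each list, where a summit is the position the authors' caller gave as the highest point. The median distance was 61.5 bp between Orc1 list 1 and each Orc2 list and 60.5 bp between Orc1 list 2 and each Orc2 list. It was 22.5 bp between the 2 Orc1 lists and 7.5 bp between the 2 Orc2 lists. Summits lay within 50 bp of each other at 84.3% of regions between the Orc1 lists and at 93.0% between the Orc2 lists, against 39.5% to 44.2% in the 4 pairs of an Orc1 and an Orc2 list. The distance between subunits was thus larger than the distance between lists of a subunit in every pair.

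**Figure D2:**
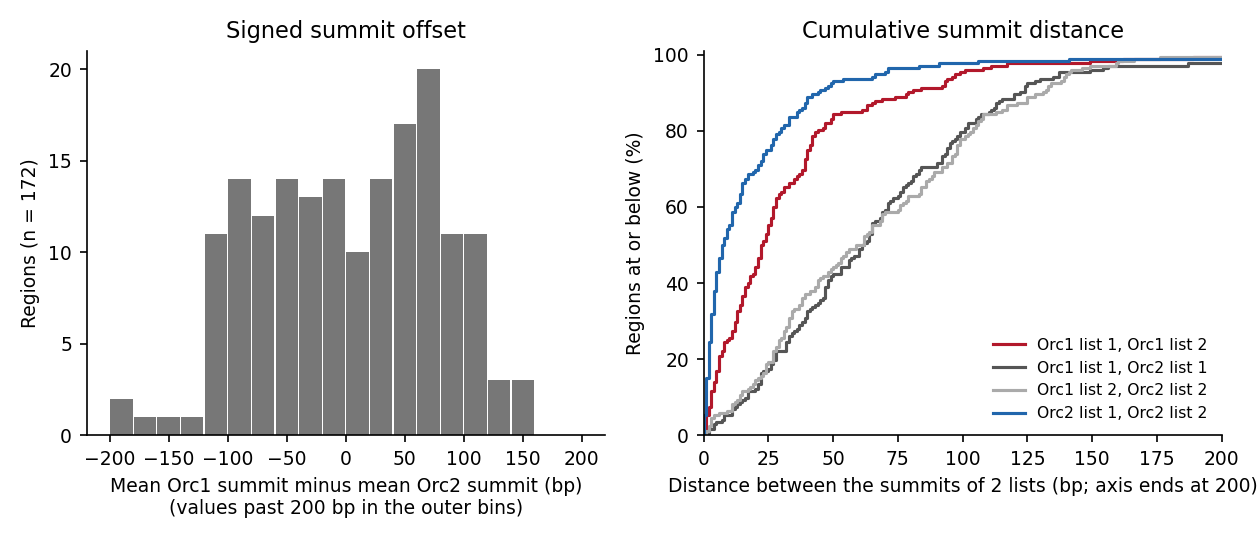
Left, number of regions (y axis) by mean Orc1 summit minus mean Orc2 summit (x axis, bp) at 172 regions with 1 peak per list; right, cumulative percent of these regions (y axis) by distance between the summits of 2 lists (x axis, bp). Offsets spread on both sides of 0 with a median of 6.5 bp, and both curves of an Orc1 with an Orc2 list run to the right of the curves within a subunit.

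The offset was tested per region with limma (Orc1 minus Orc2, Benjamini-Hochberg over the 172 regions). It passed adjusted p of 0.05 at 74 regions (43.0%), with Orc1 at the higher coordinate in 41 (23.8%) and at the lower in 33 (19.2%). Both Orc1 summits lay above both Orc2 summits at 76 regions and below both at 65, and the lists overlapped at 31. The absolute offset of the called regions was 38 to 180.5 bp, with a median of 85.5 bp. The calls rested on the closeness of the 2 Orc2 lists. Without Orc2 list 1 limma called 0 regions, with 69 at unadjusted p under 0.05, and without Orc2 list 2 it called 1, with 68 at unadjusted p under 0.05.

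The largest called offsets pointed in both directions. In PRP39, which encodes a splicing factor, on chromosome 6 (113792 to 114445), Orc1 summits were at 114117 and 114133 and Orc2 summits at 114318 and 114273. The Orc1 pair lay 170.5 ± 19.98 bp (SE) to the left (limma adjusted p = 0.0161). That call was lost on leaving out any 1 of the 4 lists (adjusted p = 0.0650 to 0.113). Beside the ubiquitin ligase gene TOM1 on chromosome 1 (789469 to 790575), Orc1 summits were at 790106 and 790098 and Orc2 summits at 789952 and 789959. Here Orc1 lay 146.5 ± 9.94 bp (SE) to the right (limma adjusted p = 0.0157), a call lost without either Orc2 list but not without either Orc1 list. Between JJJ3 and the RNA polymerase I gene RPA49 on chromosome 3 (1059548 to 1060650) the offset was −143.5 bp, and between PBP4 and the gluconeogenesis gene FBP1 on chromosome 5 (287712 to 288947) it was 142.5 bp. The JJJ3 offset was called without either Orc1 list and the FBP1 offset was not (limma adjusted p = 0.129 without Orc1 list 1 and 0.0955 without Orc1 list 2). The largest, −180.5 bp, was at the left end of chromosome 1, where Orc2 fold enrichment was 1.81 and 1.41 and the 2 Orc2 summits were themselves at 806 and 700. It too lost its call without any 1 of the 4 lists.

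Orc1 summits lay inside annotated genes more often than Orc2 summits did. Of the 172 summits of a list, 76.2% and 78.5% lay between genes for Orc1, against 91.9% and 93.6% for Orc2. Neither Orc1 list overlapped the Orc2 lists in this share. Both Orc1 summits were in a gene with both Orc2 summits between genes at 19 regions, and the opposite held at 1. Of those 19, 17 had a called offset, against 74 of all 172 (43.0%), and a gene border between the summits already selects for distance. They included the region between MCM7, which encodes a subunit of the helicase that ORC loads, and RGL1 on chromosome 2 (558526 to 559299), with Orc1 summits at 558983 and 559032 and Orc2 summits at 558877 and 558873. The region between TIF3 and ORC4 on chromosome 8 (92027 to 92958) was another, with Orc1 summits at 92581 and 92551 and Orc2 summits at 92453 and 92455. Both of these were named because they lie beside genes of the listed replication factors.

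The midpoint of the Orc1 peak tended to lie on the side of its summit. It was displaced from the midpoint of the Orc2 peak in the same direction as the summit at 130 of 172 regions. The same held at 62 of the 74 with a called offset. Both edges of the peak were displaced in that direction at only 26 of the 74, so most of these peaks were not shifted as a whole. Across the 172 regions Spearman's rho between the 2 displacements was 0.59, as a description of sites measured in the same 4 libraries. With respect to the nearest chromosome end, Orc1 summits were on the outer side at 90 regions and on the inner side at 82. The gene table gives no strand, so offsets could not be oriented by gene direction.

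The order of the matched regions by strength differed between the subunits more than between lists of 1 subunit. Each region was given its percentile rank by fold enrichment among the 199 in a list, with 100 as the highest. The median difference in percentile was 7.54 between the Orc1 lists and 4.02 between the Orc2 lists, and 12.1 to 13.6 in the 4 pairs of an Orc1 with an Orc2 list. Spearman's rho was 0.85 and 0.97 within Orc1 and Orc2, and 0.61 to 0.68 between them. In limma, 42 of the 199 regions (21.1%) differed at adjusted p under 0.05, 20 (10.1%) ranking higher in Orc1 and 22 (11.1%) lower.

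Regions that ranked higher in Orc1 included 3 at chromosome ends among the 5 with the largest differences. The largest difference was at 34324 to 39641 on chromosome 7, between the tRNA gene TDEL0Gtrna5V and TDEL0G00190, with percentiles of 91.0 and 86.9 in Orc1 and 0.503 and 1.01 in Orc2 (difference 88.2 ± 4.57 SE, limma adjusted p = 0.00134). Its fold enrichment was 12.1 and 12.5 in Orc1 lists and 1.64 and 2.07 in Orc2 lists, so it was among the strong Orc1 sites and the lowest Orc2 sites. The next, between TDEL0D02390 and the deubiquitinase gene UBP6 on chromosome 4 (466168 to 467307), lay far from both ends. It had percentiles of 93.0 and 93.0 in Orc1 and 23.4 and 24.4 in Orc2 (difference 69.1 ± 4.40 SE, limma adjusted p = 0.00185). The left ends of chromosomes 7 and 1 and the right end of chromosome 8 followed, with differences of 61.1, 59.8 and 53.0. At 34324 to 39641 on chromosome 7, the left end of chromosome 1 and the right end of chromosome 8, Orc2 −log10 q was only 1.33 to 5.51. These 3 were not matched at −log10 q of at least 10. Of the 20 regions higher in Orc1, 5 were centred in the terminal 20 kb, against 1 of the 22 lower regions (4.55%) and 16 of all 199 (8.04%).

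Regions that ranked lower in Orc1 included a site beside a histone gene. Between SOK1 and HHF1, which encodes histone H4, on chromosome 4 (784713 to 786068), percentiles were 24.1 and 28.6 in Orc1 and 88.9 and 91.0 in Orc2 (difference −63.6 ± 4.66 SE, limma adjusted p = 0.00246). Fold enrichment there was 5.17 and 6.22 in Orc1 and 30.1 and 33.0 in Orc2. A region beside the tRNA gene TDEL0Btrna14G on chromosome 2 (1110305 to 1110993) had a difference of −57.3, and one between ECM9 and the mitochondrial ribosomal protein gene MRPL13 on chromosome 1 (523168 to 524273) a difference of −54.1. The other 2 of the 5 were on chromosome 4, one at the right end (1211984 to 1218143, difference −53.3) and one between TDEL0D05730 and TDEL0D05740 (1031928 to 1032744, −50.0). The right end lost its call when ranked by −log10 q (difference −15.3, limma adjusted p = 0.0995). Among the lower regions, 10 of 22 (45.5%) were no more than 1000 bp from a tRNA gene, as were 6 of the 20 higher ones and 52 of all 199 (26.1%). At wide regions the strongest peaks of the subunits were not always at the same place. The summits at the left end of chromosome 7 were at 1598 and 1518 for Orc1 and at 7671 and 7671 for Orc2, and those at the right end of chromosome 4 at 1217731 and 1217721 for Orc1 and at 1216040 and 1216038 for Orc2.

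The rank calls also rested on the Orc2 lists. Without Orc2 list 1 and without Orc2 list 2 limma called 0 regions, with 40 at unadjusted p under 0.05 in each case, while the differences of the 10 named regions kept their sign. Without Orc1 list 1 the number called was 26. With log2 fold enrichment centred on each list's median in place of ranks, 81 regions were called, 30 higher and 51 lower in Orc1.

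**Figure D3:**
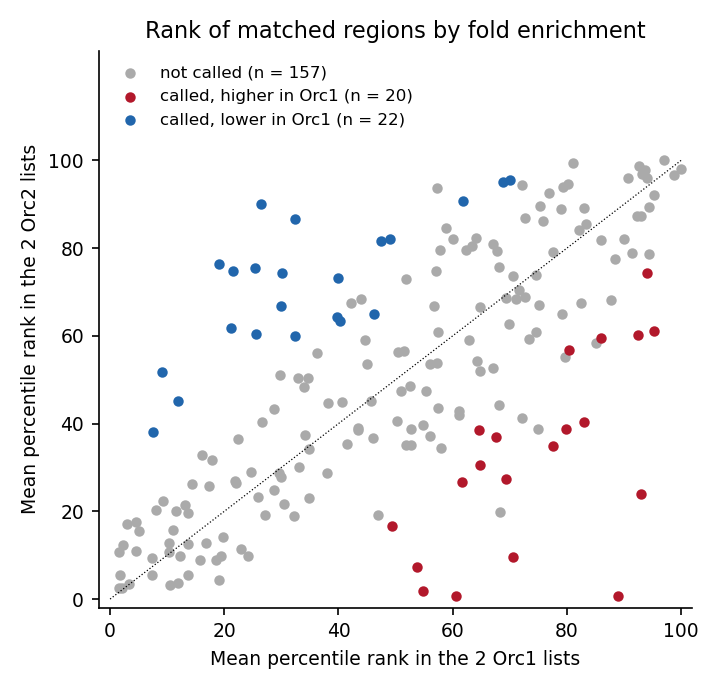
Mean percentile rank by fold enrichment of the 199 matched regions in the 2 Orc1 lists (x axis) and the 2 Orc2 lists (y axis), 100 being the highest; colours mark the 20 regions called higher and the 22 called lower in Orc1 by limma, and the dotted line marks equal rank. Called regions lie on both sides of the line, and the lower right corner holds regions that rank high in Orc1 and near the bottom in Orc2. Other regions near the bottom in Orc2 are also low in Orc1.

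Orc1 peaks were somewhat wider than Orc2 peaks along the chromosomes and much wider at the ends. Median summed width over the 199 matched regions was 998 and 1034 bp in Orc1 lists, against 822 and 826 bp in Orc2 lists. The median log2 difference was 0.26, a ratio of 1.20, and both Orc1 lists exceeded both Orc2 lists at 108 regions and fell below both at 27. Within 20 kb of an end the median ratio was 3.59 (log2 difference 1.73 ± 0.90, mean and SD over 16 regions). The Orc1 lists differed there, with median widths of 1556 bp in list 1 and 3570.5 bp in list 2, against 787 and 726.5 bp in Orc2 lists. The median ratio was 1.53 from 20 to 100 kb (25 regions) and 1.14 beyond 100 kb (158 regions).

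In limma, width differed at 12 of 199 regions (6.03%), all wider in Orc1, and 73 passed unadjusted p of 0.05. Of the 12, 8 were within 20 kb of an end and 2 from 20 to 100 kb. Relative to the median shift, with widths centred in each list, 14 regions were called, of which 10 were wider and 4 narrower in Orc1. The number called was 2 without Orc1 list 2 and 7 without Orc2 list 2.

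The largest differences in width combined long Orc1 peaks with short Orc2 peaks. At 34324 to 39641 on chromosome 7, which also led the rank comparison, Orc1 covered 3460 and 5318 bp and Orc2 189 and 325 bp (log2 difference 4.11 ± 0.36 SE, limma adjusted p = 0.0116). At the annotated mating-type genes HMLALPHA1 and HMLALPHA2 on chromosome 3 (1269147 to 1282970), Orc1 covered 6187 and 13824 bp and Orc2 1064 and 754 bp (3.37 ± 0.44 SE, adjusted p = 0.0226). The chromosome 7 and the mating-type region each lost the call without Orc1 list 2 (limma adjusted p = 0.0829 and 0.141), with log2 differences of 3.44 and 2.77. The mating-type region also lost it when the strongest peak alone was measured (3.55, adjusted p = 0.0885), and its strongest Orc1 peaks, with summits at 1276193 and 1276176, were not at the place of the Orc2 peaks at 1270275 and 1270272. At the left end of chromosome 7 (1 to 10251) Orc1 covered 6998 and 10251 bp and Orc2 937 and 844 bp, and at the left end of chromosome 1 (1 to 1135) Orc1 covered 1131 and 1135 bp and Orc2 233 and 237 bp. The Orc2 peaks had −log10 q of 1.33 and 3.42 at 34324 to 39641 on chromosome 7, and 5.51 and 1.69 at the left end of chromosome 1. These 2 regions were therefore not matched at −log10 q of at least 10. Without centring, no region was called narrower in Orc1 (27 had both Orc1 lists below both Orc2 lists). The lowest p in that direction was between the transcription factor gene TYE7 and PYK2, with the summit in REV1, on chromosome 8 (695654 to 697518), with 591 and 645 bp for Orc1 and 1166 and 1679 bp for Orc2 (−1.18 ± 0.22 SE, limma adjusted p = 0.0579). This difference passed with centred widths (adjusted p = 0.0266) and without Orc2 list 1 (adjusted p = 0.0233).

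The side on which Orc1 exceeded Orc2 was not uniform. Among the 16 matched regions within 20 kb of an end, the Orc1 peaks reached further beyond the Orc2 peaks toward the end at 9 and toward the centre of the chromosome at 7. At the mating-type region the excess was 6524 bp on the side of the end and 521.5 bp on the other. At the right end of chromosome 1 it was 260.5 bp toward the end and 5827 bp toward the centre, where the Orc2 peaks already lay close to the end. A peak cannot reach past an end, which caps the excess on that side. The end used for the right of chromosome 1 was itself the last base of an Orc1 peak. The sides are therefore not on equal terms in this count.

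**Figure D4:**
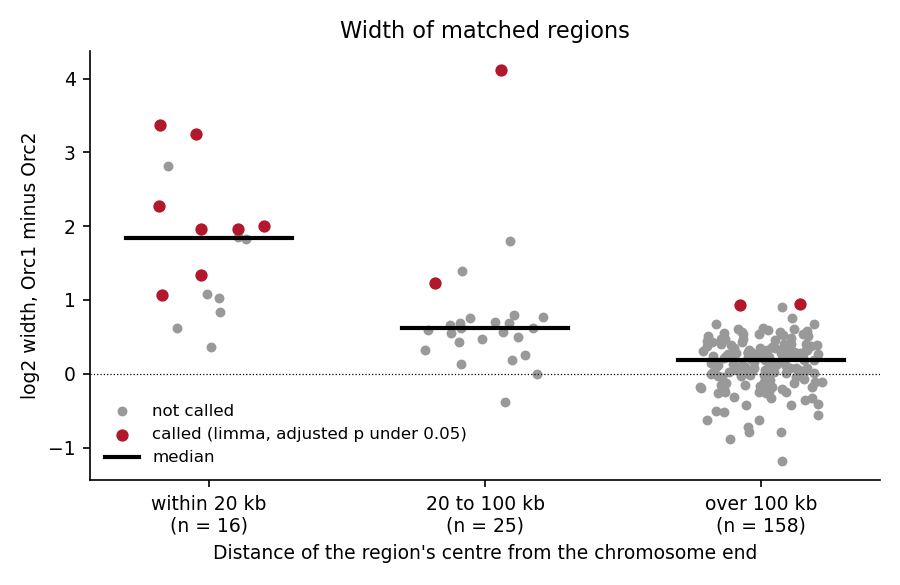
Difference in log2 summed peak width, Orc1 minus Orc2 (y axis), of the 199 matched regions by distance of the region's centre from the chromosome end (x axis, 3 bins); points are regions, red points were called by limma and bars are medians. All 16 regions within 20 kb of an end lie above 0.

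Each chromosome end taken alone showed more Orc1 than Orc2 coverage. In the terminal 20 kb, both Orc1 lists had more length under peaks than both Orc2 lists at 16 of 16 ends. The ends were measured in the same 4 libraries and are not independent. Summed over the ends, Orc1 covered 56.1 and 144.6 kb and Orc2 covered 15.99 and 15.06 kb, a ratio of means of 6.47 (exact permutation over the 4 lists, two-sided p = 0.333, the smallest that 6 splits can give). The ratio was 3.62 with Orc1 list 1 and 9.31 with Orc1 list 2 as the only Orc1 list. Outside the terminal 20 kb the lists covered 208.8 and 241.8 kb for Orc1 and 200.4 and 193.2 kb for Orc2, a ratio of 1.14 (exact permutation p = 0.333).

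The ends differed among themselves. At the left end of chromosome 2 Orc1 covered 7.71 and 18.4 kb while neither Orc2 list had a peak, the only end of this kind. The right ends of chromosomes 3 and 8 had 5.13 and 17.2 kb and 6.64 and 17.2 kb under Orc1 peaks, against 0.538 and 0.184 kb and 1.06 and 0.717 kb under Orc2 peaks. At the right end of chromosome 7 coverage was low for both subunits, 0.537 and 0.996 kb for Orc1 and 0.382 and 0.382 kb for Orc2. Orc2 covered most at the right ends of chromosomes 1 (2.70 and 2.71 kb) and 4 (2.45 and 2.03 kb). Orc1 list 2 exceeded Orc1 list 1 at all 16 ends, so the 2 Orc1 lists differed there in covered length.

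**Figure D5:**
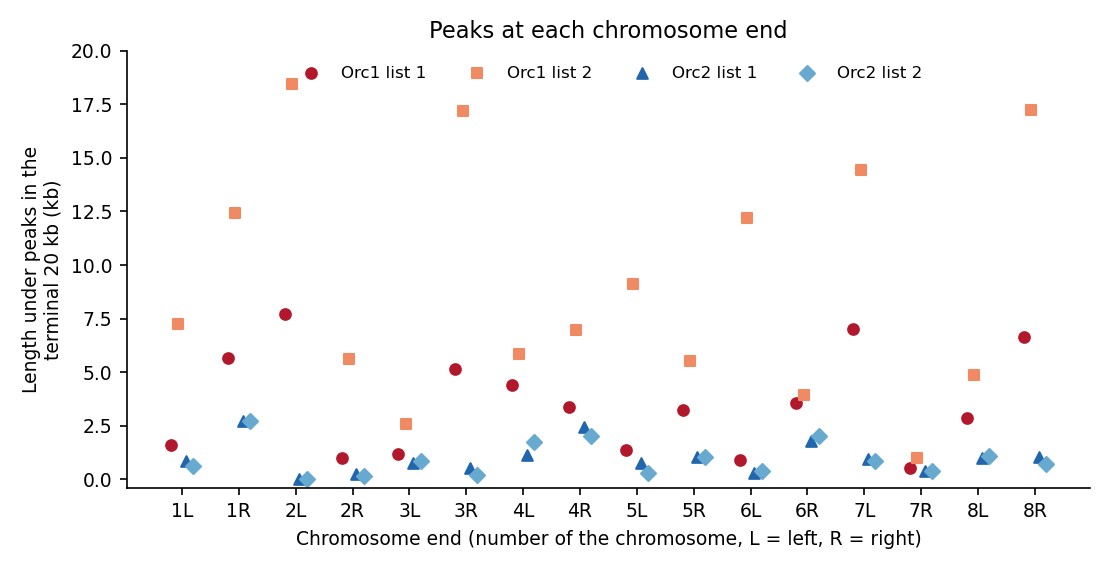
Length under peaks in the terminal 20 kb (y axis, kb) at each of the 16 chromosome ends (x axis), with 1 symbol for each list. Both Orc1 symbols lie above both Orc2 symbols at every end, and the Orc1 list 2 symbol is the highest at each.

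By centre, 5 of 19 Orc1-only regions (26.3%, 95% interval 9.15% to 51.2%), 16 of 199 matched regions (8.04%, 4.67% to 12.7%) and 0 of 50 Orc2-only regions (up to 7.11%) lay within 20 kb of an end. The gaps from these 5 Orc1-only regions to the nearest Orc2 peak were 332, 387, 553, 797 and 14485 bp. Most of them thus adjoined Orc2 peaks, and the longest gap was at the left end of chromosome 2. The intervals cover counting error over regions only. Without Orc1 list 1, when a peak in Orc1 list 2 alone was enough, the Orc1-only share was 66.7% (56 of 84). The summit, averaged over lists, lay between genes in 13 of 19 Orc1-only regions (68.4%, 43.4% to 87.4%), 177 of 199 matched regions (88.9%, 83.7% to 92.9%) and 20 of 50 Orc2-only regions (interval 26.4% to 54.8%). That average was over 4 lists at matched regions and over 2 in the other classes, so the shares are not on 1 measure. At wide regions it could fall where no list had a summit. Taken per list at the 172 one-to-one regions, the share was 76.2% and 78.5% for Orc1 and 91.9% and 93.6% for Orc2. Matched regions were spread evenly over the 8 chromosomes, at 19.9 to 23.2 per Mb with median spacing of 41.8 to 57.4 kb. Chromosome 8, the shortest, held 6 of the 19 Orc1-only regions, and chromosome 5 held none.

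Some genes of replication and silencing lay beside the regions, and 965 of all 5174 genes (18.7%) lay within 1000 bp of any region and 573 (11.1%) of a matched one. Of the 6 ORC genes, ORC4 and ORC5 lay within 1000 bp of a matched region and ORC1 under an Orc2-only region. At ORC5 (chromosome 3, 1092012 to 1093106) fold enrichment was 9.47 and 10.4 for Orc1 and 32.0 and 30.5 for Orc2, and at ORC4 it was 7.17 and 6.67 for Orc1 and 12.7 and 14.003 for Orc2. The region at ORC1 (chromosome 4, 164731 to 167729) was 2999 bp wide with 4.04 fold in Orc2 list 1 but 165 bp wide with 2.17 fold in Orc2 list 2, so the lists of the subunit disagreed there.

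Of 20 genes for helicase loading and origin firing, MCM3 (chromosome 3, 456572 to 457504; 8.54 and 8.48 for Orc1, 14.3 and 11.9 for Orc2) and MCM7 (4.25 and 2.87 for Orc1, 6.73 and 5.64 for Orc2) were beside matched regions, and MCM2 was beside a region of no class. Of 13 silencing genes, SIR1 lay at the matched region 47972 to 79521 on chromosome 5, where the strongest peak had 17.6 and 6.03 fold in Orc1 and 31.0 and 20.999 in Orc2. The summits of these peaks were at 74678 and 51849 in Orc1 lists and at 74507 and 55895 in Orc2 lists, so the values are from different places in the region. It was a single peak of 31550 bp in Orc1 list 2 but held 6 peaks in Orc1 list 1, against 9 and 8 in Orc2 lists 1 and 2. HST3, named for a Sir2-family deacetylase, lay beside an Orc2-only region with its summit in SNF1 (2.005 and 2.099). Of the 5 general regulatory factor genes found, ABF1 (12.2 and 16.7 for Orc1, 33.3 and 35.2 for Orc2) and MCM1 (8.56 and 12.97 for Orc1, 34.3 and 33.9 for Orc2) were beside matched regions. At ABF1 the Orc1 summit was 102.5 bp to the right of the Orc2 summit (limma adjusted p = 0.0157), and at ORC5 the offset of 12.5 bp did not pass (adjusted p = 0.471).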

How the data were processed

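ChIP-seq of Orc1 and Orc2 was used as 4 deposited peak lists, called per library. Per the submitters' processing notes, tools included MACS2 2.2.7.1, cutadapt 2.10 and Bowtie2 2.3.4.1. Settings and build were not given in the sources used here. Controls are as the peak names give them. They name the untagged strain by another number than the labels do, and they hold the word subsample, which is not explained. Each peak has, as deposited by the authors, its position with a summit, fold enrichment (a ratio), −log10 p and −log10 q values, and an integer score that was not analysed. The lists hold no read counts, so depth is unknown. Sequence names were taken as chromosomes 1 to 8 of ASM24337v1, since all 8 had their highest share of summits between genes (62.3% to 76.5%) on the chromosome of the same number in its gene table (median 20.7% for others). The last position that any gene or peak reached served as a chromosome's end. Positions are 1-based.

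A region's fold enrichment and summit in a list are from the peak of highest −log10 q, and its width is the summed width of its peaks. Percentile ranks, log2 widths and summits were compared with limma 3.58.1 (R 4.3.3), Orc1 minus Orc2, without the replicate number. The fit assumes 1 spread for both subunits, although the Orc2 lists were closer to each other. The scripts were tested on simulated data with large planted shifts and the same spread in both subunits. That test could not show how unequal spread affects the calls. P-values measure only the spread between these lists. Regions named are the 6 matched regions with the highest lowest rank, the 10 Orc1-only and 10 Orc2-only with the highest lower fold enrichment, the called regions with the largest differences in width (4 each way), rank (5 each way) and summit (5), with the lowest p where none was called, and classed regions within 1000 bp of listed replication, silencing, mating-type and general regulatory factor genes. Others were named after their values were seen. The regions, classes and gene lists were chosen with earlier results of these data known. Alternatives are given in the closing section.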

Additional observations from a re-analysis of the deposited data

How the results depend on the processing

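The matched count stayed between 184 and 206 under all alternatives run. At −log10 q of at least 10 there were 20 Orc1-only and 10 Orc2-only regions, and with 263 peaks per list 23 and 26. Without 1 list, Orc1-only regions ranged from 20 to 84 and Orc2-only regions from 51 to 108, their share within 20 kb of an end (Orc1-only) from 23.1% to 66.7%, and the share of matched regions with the summit between genes from 80.5% to 90.2%. By the centre of the region that share was 70.4%. Regions called in width, rank and summit by limma ranged from 2 to 17, 0 to 52 and 0 to 99 without 1 list. Width calls numbered 7 at one-to-one regions, and rank calls 81 with centred log2 fold enrichment. Where a list was left out, the fit took the spread from fewer lists. The definitions of the Orc1-only and Orc2-only classes then also rested on fewer lists and were looser, so their numbers could be expected to rise. For the rest, the cause was not tested.

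The lists share only a replicate number, and the deviations of same-numbered lists correlated at −0.22 (width), −0.04 (rank) and −0.04 (summit). With a replicate block limma called 16 regions in width (1 narrower in Orc1, at REV1), 51 in rank and 0 in summit (78 at unadjusted p under 0.05). With the numbers crossed, chosen after seeing the data, it called 20 in width, 0 in rank (66 at unadjusted p) and 0 in summit (84 at unadjusted p). The 7 width, 10 rank and 5 summit differences that were recomputed kept their sign in each alternative that gave them a value. At −log10 q of at least 10 only 5, 7 and 3 of them had a value. No result met the rules for a closer look, since groups of 2 lists are too small for an outlier test. With 2 lists against 2, an exact permutation over lists cannot go below p = 0.333, and the lists give no depth.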
